A study of Mus musculus with 4 samples.

Results

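The H19, Igf2 and Kcnq1 domain is a cluster of imprinted genes on the distal part of mouse chromosome 7. It was taken here as the stretch chr7:142400000-143800000 (build mm10), in which 10 genes were followed: H19, Igf2, Ins2, Ascl2, Cd81, Kcnq1, Kcnq1ot1, Cdkn1c, Slc22a18 and Phlda2. Called ATAC-seq peaks of 4 libraries that overlapped by at least 1 bp were joined into regions, and each region was assigned to the nearest of the 10 genes. This gave 159 regions in the domain, of 208211 in all. The domain was picked with differences between the genotypes at H19 already known from these peak lists, so its calls and ranks are given as a description and carry no test.

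ATAC-seq marks open chromatin by the insertion of sequencing adapters by a transposase. The libraries came from mouse embryonic stem cells labelled wt or Hox-/-, the latter lacking all Hox function per the series title, with 2 libraries of each genotype. All were grown in serum medium with leukaemia inhibitory factor, the GSK-3 inhibitor CHIR99021 and the MEK1/2 inhibitor PD0325901. The labels name no strain, no clone and no separate cultures, so genotype and cell line cannot be told apart, and the spread between replicates may be technical.

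At an imprinted gene only the copy from 1 parent is expressed, and the choice is held by DNA methylation laid down in the germ line at a control region. On the maternal chromosome the unmethylated control region upstream of H19 is bound by the insulator protein CTCF, which keeps enhancers away from Igf2, while on the paternal chromosome the methylated region leaves CTCF off, H19 stays silent and Igf2 is expressed. In the neighbouring Kcnq1 domain the control region holds the promoter of Kcnq1ot1, a long non-coding RNA made from the paternal chromosome that silences Cdkn1c, Phlda2, Slc22a18, Kcnq1 and other genes in cis. Neither DNA methylation nor the parental origin of a fragment was measured here, so every value is a sum over both chromosomes.

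The printed windows run from 250 bases before to 50 bases after an annotated start (RefSeq, GRCm38.p6), on the strand of the gene, with CpG dinucleotides in capitals, because methylation at CpGs is what holds an imprint. RefSeq windows matched 6 of the 10 genes at 9 starts. H19, Ins2, Kcnq1 and Cdkn1c were not matched. The 4 windows shown are that of Kcnq1ot1, whose peak was the strongest at any start of the 10 genes, and for contrast those of Ascl2, Phlda2 and Slc22a18, which run from many CpGs to few.
Kcnq1ot1, chr7:143296498-143296797, minus strand: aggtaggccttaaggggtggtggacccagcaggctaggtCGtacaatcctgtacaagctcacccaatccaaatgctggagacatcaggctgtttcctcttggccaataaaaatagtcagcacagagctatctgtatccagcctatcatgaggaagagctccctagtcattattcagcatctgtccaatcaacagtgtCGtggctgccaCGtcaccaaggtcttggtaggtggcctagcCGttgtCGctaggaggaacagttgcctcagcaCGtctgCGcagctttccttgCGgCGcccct
Ascl2, chr7:142969215-142969514, minus strand: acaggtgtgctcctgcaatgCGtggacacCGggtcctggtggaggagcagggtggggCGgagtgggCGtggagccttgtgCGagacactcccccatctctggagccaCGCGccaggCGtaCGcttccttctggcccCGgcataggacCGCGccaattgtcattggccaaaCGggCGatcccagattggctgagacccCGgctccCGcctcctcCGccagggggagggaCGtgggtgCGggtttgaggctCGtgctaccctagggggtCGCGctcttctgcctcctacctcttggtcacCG
Phlda2, chr7:143502475-143502774, minus strand: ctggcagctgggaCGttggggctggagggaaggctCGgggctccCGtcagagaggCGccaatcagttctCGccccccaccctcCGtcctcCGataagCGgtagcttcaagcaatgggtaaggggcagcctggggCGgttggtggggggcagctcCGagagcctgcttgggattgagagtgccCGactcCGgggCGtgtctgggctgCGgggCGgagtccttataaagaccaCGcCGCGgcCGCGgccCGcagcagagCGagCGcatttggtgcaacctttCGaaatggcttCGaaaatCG
Slc22a18, chr7:143473539-143473838, plus strand: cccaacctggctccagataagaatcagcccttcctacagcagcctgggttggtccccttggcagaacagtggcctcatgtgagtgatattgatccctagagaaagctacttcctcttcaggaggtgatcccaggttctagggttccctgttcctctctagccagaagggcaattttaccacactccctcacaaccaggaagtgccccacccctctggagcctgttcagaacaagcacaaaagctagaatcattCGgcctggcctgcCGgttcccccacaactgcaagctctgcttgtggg
The Kcnq1ot1 window, which reaches only 50 bases past the start, held 9 CpGs and 53.3% G and C. This was close to the medians of 7 CpGs and 52.7% over 32851 RefSeq windows, and the rest of the control region was not examined. Ascl2 (23 CpGs, 67% G and C) and Phlda2 (26 CpGs, 65.7%) were well above these medians, and Slc22a18 had 2 CpGs and 54.7%. The 6 letters TGCCGC, the site of the imprint-protecting zinc finger protein ZFP57, were sought on both strands together with a CTCF motif of the H19 control region and a shorter CTCF core. Of all windows, 11.6% held TGCCGC, 0.0365% the H19-type CTCF motif and 3.38% the shorter core. Over the 9 starts the search found 1 match, a TGCCGC at the Igf2 start at 142661271.

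The peak lists held 191704 to 216795 lines per library, and the relative depth estimated from their background was 1 and 0.941 in wt and 0.640 and 0.987 in Hox-/-, replicates 1 and 2. Summits inside the 4 Hox clusters numbered 178 and 181 in wt against 2 and 1 in Hox-/-, as the labels say. The domain held 175 and 181 peaks in wt and 160 and 168 in Hox-/-, which was 0.0819% and 0.0835% of the wt lists and 0.0835% and 0.0839% of the Hox-/- lists. The share of peaks in the domain was thus nearly the same in all 4 libraries, with a log2 ratio of Hox-/- to wt of 0.02.

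Of the 159 regions, 111 (69.8%) were called in all 4 libraries, against 59% of all regions. Both wt libraries and neither Hox-/- library listed a peak at 4 regions of the domain, against 3.83% of all regions. The reverse held for 3 regions, against 1.23% of all regions. A further 22 were listed in 1 library only, against 18.8% of all regions. An unlisted region lies below the caller's threshold, whose lowest −log10 q was 1.30, and is not a region without reads.

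To compare lists of unequal length, the regions called in all 4 libraries were ranked within each library by their −log10 p. The shift is the mean log2 place in wt minus that in Hox-/-. It is positive where a region lay nearer the top in Hox-/-, and a shift of 1 means that its place number was 2 times lower there. Shifts and overlap were taken from these places among common regions. The places printed below for single regions are those in each library's full list, so a shift does not follow from them exactly. The median shift of the domain was 0.02, against 0.00 over all 122787 common regions, with 58 regions above 0 and 53 below. Regardless of sign, the median size of the shift was 0.226 in the domain and 0.172 over all common regions. The median size of the replicate difference was larger there too, 0.208 against 0.186 in wt and 0.257 against 0.214 in Hox-/-. Both Hox-/- places lay above both wt places at 23 of the 111 regions, against 20.5% of all common regions, and both lay below at 22, against 20.3%. Places overlapped at the other 66. The shift exceeded the difference between replicates of both genotypes at 33 of the 111, against 28% of all common regions. The shifts ran from −0.95 to 1.85, and the highest of them stood apart, beside H19.

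**Figure D1:**
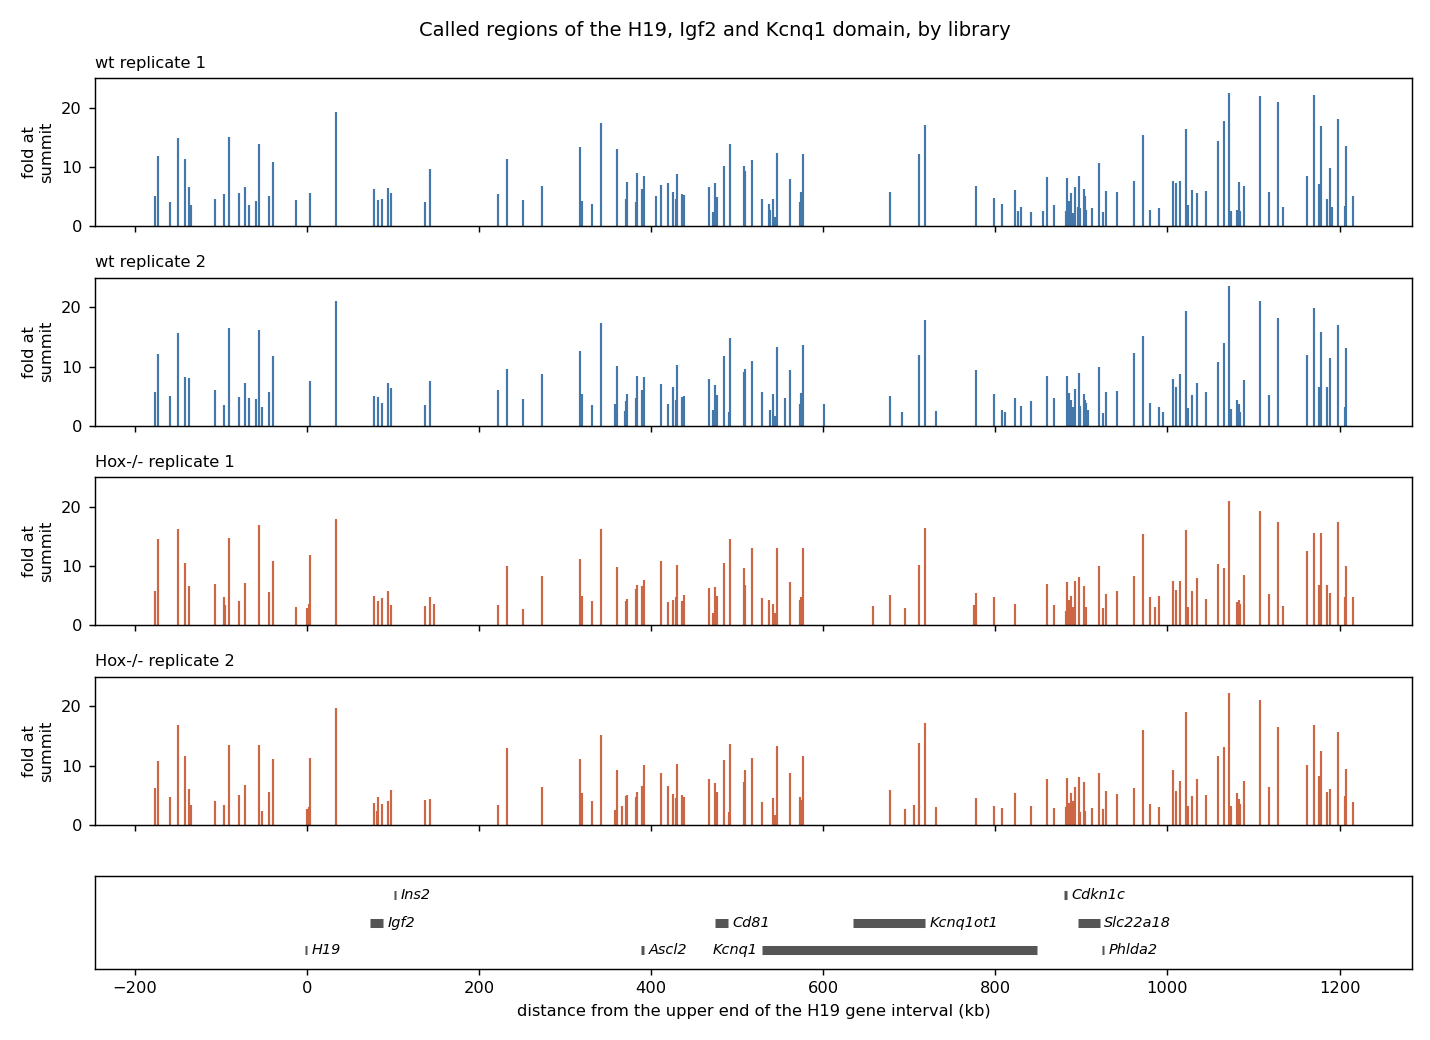
Fold over background at the summit of every called region of the domain, 1 panel per library, with the 10 genes below. Each line is 1 region, and the x axis is the distance in kb from the upper end of H19. Most strong regions are strong in all 4 libraries. Just to the right of 0, 3 regions were listed in both Hox-/- libraries and 1 in both wt libraries.

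H19 is a long non-coding RNA with an imprinted, maternally expressed copy, and its interval is 142575530 to 142578146. It held no region inside its body. In the 10 kb past its upper end 3 regions were called, and these are the regions for which the domain was chosen. The mouse H19 control region lies on this side of the gene. No sequence of these 3 regions is shown, as no genome was used here.

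The region nearest to H19 was 229 bp wide, with its summit at chr7:142578250, 104 bp past the gene. It was unlisted in both wt libraries and stood at places 146996 and 164520 of the Hox-/- lists, with folds over background of 2.95 and 2.65. The pileup, the number of fragments or extended reads stacked at the summit as recovered from fold and p, was 31 and 37. The next region, 279 bp wide with its summit at 142580345, lay 2199 bp from the gene. It too was unlisted in both wt libraries, with places 118052 and 150985, folds of 3.61 and 2.93 and pileups of 37 and 38 in Hox-/-. Both were weak peaks in the lower part of their lists. Kept to the 150000 strongest lines of each list, neither was called in Hox-/- replicate 2. They are 2 of the 3 regions of the domain listed in Hox-/- only.

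The third region, 712 bp wide and ending at 142581868, had its highest summit at 142581433, 3287 bp past H19, and was listed in every library. Its places were 101864 and 75893 in wt and 19912 and 24584 in Hox-/-. The fold at the summit was 5.56 and 7.48 in wt and 11.9 and 11.3 in Hox-/-. The groups did not overlap on either measure. The pileup was 46 (exact 95% Poisson interval 33.7 to 61.4) and 59 (44.9 to 76.1) in wt. In Hox-/- it was 125 (104 to 149) and 151 (128 to 177). These intervals cover counting error only. Both Hox-/- pileups were higher than both wt pileups. Hox-/- replicate 1 was the shallowest library, and the part of depth in these pileups was not tested.

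The local background under this summit was 7.46 and 7.02 in wt, the lowest level of those libraries, and 9.58 and 12.4 in Hox-/-, above the lowest levels of 4.77 and 7.36. The peak was also wider in Hox-/-, 702 and 662 bp against 621 and 500 bp. Its shift was 1.85, against differences of 0.37 between the wt replicates and −0.30 between the Hox-/- replicates. Leaving out any 1 library gave shifts of 1.67 to 2.04. Of all 122787 common regions, only 37 had a larger positive shift, so it stood at place 38. A shift of at least 1 with no overlap in this direction was found at 0.283% of all common regions, and in the domain at this region alone. The domain was chosen for the regions beside H19, so these values describe the difference and are no test of it.

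**Figure D2:**
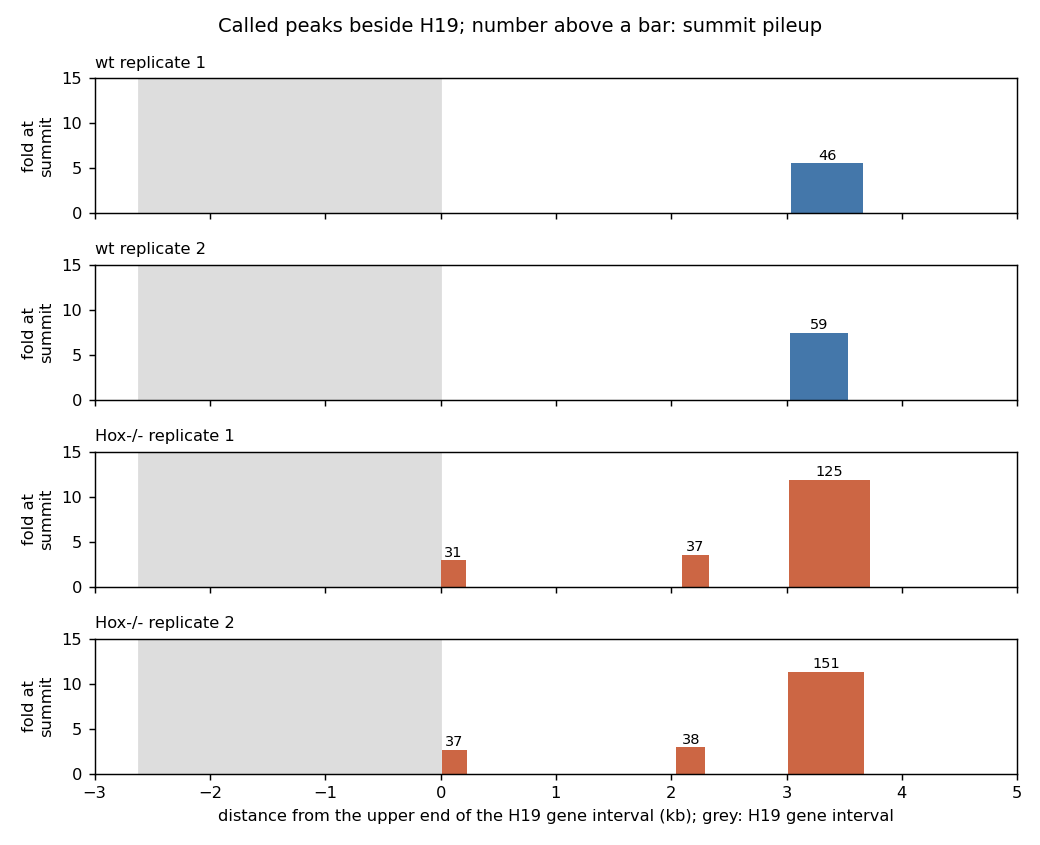
The 3 regions in the 10 kb past the upper end of H19, with the fold over background (y) of the peak listed in each library and the distance from the gene in kb (x). Bar widths are the called intervals. The wt panels show only the third region, at folds of 5.56 and 7.48, and the Hox-/- panels show all 3, the third at 11.9 and 11.3.

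All other shifts in the domain were smaller than that of the third H19 region, but they did not fall steadily with distance from H19. The strongest region between H19 and Igf2, 142610703 to 142611531, 33110 bp past H19, stood at places 6197 and 5088 in wt and 6944 and 4530 in Hox-/-. Its shift was 0.00 and its places overlapped. On the other side of H19, 13 regions lay between the gene and the lowest 50 kb of the domain, 8 of them in all 4 libraries, with a median shift of 0.11. Of these 8, 2 were higher in Hox-/- with no overlap, near the 20.5% of all common regions. The 2 wt-only regions on this side of the domain lay here, 142510355 to 142510714 within Tnnt3, a muscle troponin gene, at wt places 160298 and 127867, and 142518199 to 142518561, at 134349 and 126565.

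In the lowest 50 kb of the domain, several regions lay nearer the top in Hox-/-. These 7 regions were assigned to H19 only because it was the nearest of the 10 genes, at 131794 bp or more. They lay by Ctsd, which encodes the lysosomal protease cathepsin D, by the synaptotagmin gene Syt8 and by the troponin gene Tnni2. Of the 5 called in all 4 libraries, 4 were higher with no overlap, against 20.5% of all common regions, and the median shift was 0.62. This stretch was not among the planned sets, and its regions are neighbours that are not independent, so the count is a description only. The region 142405041 to 142405629 stood at places 23442 and 21550 in wt and 10481 and 16753 in Hox-/-, a shift of 0.73. Ranked by fold it had 0.43 and its places overlapped, and without Hox-/- replicate 1 the shift was 0.40. The region 142427980 to 142428747 stood at 22314 and 20690 against 15151 and 12046, a shift of 0.64. Just outside the domain's lower bound, the region at 142393226 had a shift of −0.05, and just outside the upper bound that at 143808752 had −0.15.

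Igf2, the insulin-like growth factor expressed from the paternal copy, spans 142650768 to 142666816 and held 4 regions, of which 3 were called in all 4 libraries. None of the 4 overlapped an annotated Igf2 start, and the distances ran from 297 to 1446 bp. The region nearest to a start, 142660191 to 142660974, had places of 86454 and 80312 in wt and 86441 and 77840 in Hox-/-, with folds of 4.50 and 4.77 against 4.14 and 4.73. Its shift was 0.02, less than the spread between replicates. The region 142664597 to 142665370 likewise gave folds of 4.60 and 3.86 in wt and 4.56 and 3.53 in Hox-/-, a shift of 0.01. The region 142655632 to 142656476 had a shift of −0.28 with overlapping places. The places of these 3 overlapped between genotypes, where 20.5% of all common regions were higher and 20.3% lower with no overlap. The fourth, 142659227 to 142659441, lay 423 bp from another start and was listed in Hox-/- replicate 2 alone, near the bottom of the list at place 184679, with a fold of 2.26.

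A region 5469 bp beyond Igf2, at 142672106 to 142672485, was lower in both Hox-/- libraries. Its folds were 6.38 and 7.23 in wt and 5.72 and 4.07 in Hox-/-, a shift of −0.32. Ins2, an insulin gene of pancreatic beta cells, had no listed peak within 1 kb in any library, and the nearest region lay 2648 bp away. Of its 5 assigned regions called in all 4 libraries, 2 were lower in Hox-/-, against 20.3% of all common regions. The largest of these differences was at 142720522 to 142720994, 41108 bp from Ins2, with folds of 9.69 and 7.48 in wt and 4.85 and 4.30 in Hox-/- and a shift of −0.75. The longest stretch of the domain without a region in any library, 72984 bp, followed at 142726250 to 142799235.

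**Figure D3:**
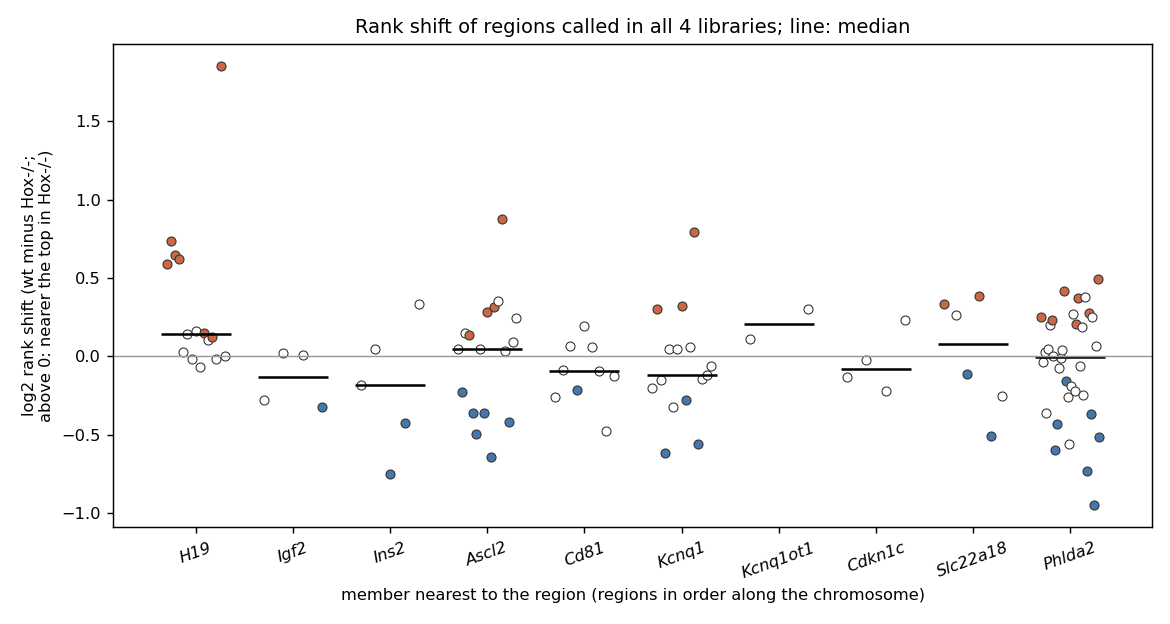
Shift in log2 place (y) of each region called in all 4 libraries, grouped by the gene it was assigned to (x). Positive values lie nearer the top in Hox-/-. The 15 regions of H19 lie mostly above 0, with 1 at 1.85, and those of the other genes lie on both sides of 0 except the 2 of Kcnq1ot1.

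Counted by nearest gene, the 15 common regions assigned to H19 included 7 higher and 0 lower with no overlap, with a median shift of 0.14. Of these 7, 4 were the distant regions in the lowest 50 kb, 2 lay between those and H19, and 1 was the third region beside the gene, for which the domain was chosen. Igf2 had 0 higher and 1 lower of 4 (median −0.13), and Ins2 0 higher and 2 lower of 5 (median −0.18). Together the H19, Igf2 and Ins2 regions had 7 higher and 3 lower of 24, with a median of 0.04. These shares were 29.2% and 12.5%, against the 20.5% and 20.3% of all common regions. The 87 common regions of the other 7 genes had 16 higher and 19 lower, with a median of −0.01. The regions of 1 gene are neighbours in 1 stretch of DNA and are not independent of each other.

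Kcnq1ot1 is the long non-coding RNA of the Kcnq1 control region and spans 143213111 to 143296547, inside Kcnq1 and read in the other direction. The region at its start, 143296018 to 143297111, has its summit 101 bp upstream of the start and so fell to Kcnq1 in the assignment. It was among the strongest of the lists, at places 1675 and 1330 in wt and 905 and 819 in Hox-/-. The pileup at its summit was 534 and 548 in wt and 433 and 632 in Hox-/-, over a local background of 30.4 and 29.6 in wt and 25.5 and 35.9 in Hox-/-. The shift was 0.79 with no overlap, at place 928 of all common regions. Its folds of 17.1 and 17.9 in wt and 16.4 and 17.2 in Hox-/- overlapped, and ranked by fold the shift turned to −0.14. The difference at this control region therefore depended on the measure, which that at the third H19 region did not: ranked by fold, that one kept its direction and still had no overlap.

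Inside the body of Kcnq1ot1 there were 6 regions, of which 2 were called in all 4 libraries and 3 in 1 library only, against 59% and 18.8% of all regions. The region 143288936 to 143289803 stood at places 20093 and 21323 in wt and 23939 and 11580 in Hox-/-, a shift of 0.30 with overlap. The region 143254925 to 143255298 had a shift of 0.11, also with overlap. A region at 143272830 to 143273186 was listed only in Hox-/-, at places 174733 and 186110, with pileups of 16 and 21. It was the third Hox-/- only region of the domain and the weakest of them.

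Kcnq1, a voltage-gated potassium channel, spans 143106877 to 143427050 and had 28 assigned regions, 15 of them in all 4 libraries. Of these 15, 3 were higher and 3 lower in Hox-/- with no overlap, close to the 20.5% and 20.3% of all common regions, and the median shift was −0.12. The region at its lower end, 143106628 to 143107744, was weak, with folds of 4.65 and 5.71 in wt and 4.64 and 3.86 in Hox-/-, and its places overlapped (shift −0.15). Without Hox-/- replicate 1 the shift was −0.29, without wt replicate 1 −0.25 and as a percentile of the own list −0.31, each with no overlap, and it was −0.079 without wt replicate 2 and −0.049 without Hox-/- replicate 2. The region 143119539 to 143120438 had places of 37963 and 25655 in wt and 61256 and 39376 in Hox-/-, a shift of −0.62. Ranked by fold it was −0.20 with overlap, and it was −0.35 without wt replicate 2 and −0.33 without Hox-/- replicate 1. A nearby region, 143116623 to 143116871, was listed in wt only, at places 140160 and 142518. The stretch 143179121 to 143236134, 57012 bp that include the lower end of Kcnq1ot1, held no region in any library.

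Cdkn1c encodes the cyclin-dependent kinase inhibitor p57 and is silenced on the paternal chromosome. The region at its upper end, 143460706 to 143461524, stood at places 29197 and 27422 in wt and 30073 and 27640 in Hox-/-. The folds were 8.13 and 8.33 against 7.35 and 7.87, and the shift was −0.03, less than the spread between replicates. None of its 4 common regions was higher or lower with no overlap, against 20.5% and 20.3% of all common regions.

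Phlda2, a pleckstrin-homology protein that restrains placental growth, had a weak region at its start, 143502498 to 143502926. The folds there were 2.47 and 2.20 in wt and 2.93 and 2.61 in Hox-/-, with a shift of 0.25 and no overlap. It was 0.049 ranked by fold and 0.38 without Hox-/- replicate 2. Of 34 common regions assigned to Phlda2, 7 were higher and 7 lower, close to the 20.5% and 20.3% of all common regions. They reach 290151 bp from the gene and belong to 10 different nearest protein-coding genes. Slc22a18, an organic cation transporter family member, had a peak at its start in wt replicate 1 alone (place 126835). Of its 6 common regions, 2 were higher and 2 lower, against the same 20.5% and 20.3%. A region within it, 143476683 to 143476937, was listed in wt only, at places 132467 and 124301.

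Ascl2, a basic helix-loop-helix factor needed in trophoblast, had a region at its start, 142968802 to 142969596, at places 22227 and 26745 in wt and 24853 and 14398 in Hox-/-. The shift was 0.35 with overlap, since Hox-/- replicate 1 lay between the wt replicates, and leaving out 1 library moved it between −0.023 (without Hox-/- replicate 2) and 0.73 (without Hox-/- replicate 1, with no overlap). Inside the gene, the region 142967239 to 142968441 stood at places 38613 and 46788 in wt and 32612 and 34684 in Hox-/-, a shift of 0.32 with no overlap. The region 142989170 to 142990370, 20265 bp from Ascl2 towards the tetraspanin gene Tspan32, had folds of 7.04 and 7.09 in wt and 10.8 and 8.79 in Hox-/-. Its shift of 0.88 was the next highest of the domain after that beside H19. On the other side, the region 142960897 to 142961654 had folds of 9.07 and 8.47 in wt and 6.78 and 5.46 in Hox-/-, a shift of −0.64. Of the 17 common Ascl2 regions, 4 were higher and 6 lower, against 20.5% and 20.3% of all common regions.

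Cd81, a tetraspanin of the cell surface, had a region at its start, 143052322 to 143053220, with folds of 7.26 and 6.93 in wt and 6.40 and 7.03 in Hox-/-. Its shift by −log10 p was −0.22 with no overlap, and by fold it was 0.00 with overlap. Without Hox-/- replicate 1 it was −0.11 and without Hox-/- replicate 2 −0.33. The strongest region of the domain, 143068765 to 143069698, lay within Tssc4, 1223 bp past Cd81, at places 324 and 197 in wt and 253 and 480 in Hox-/-. Its places overlapped. The lowest shift of the domain, −0.95, was near the sensory receptor gene Mrgprg, at 143766791 to 143767225, with folds of 9.85 and 11.5 in wt and 5.37 and 6.04 in Hox-/-. The region 143748222 to 143748937, within the oxysterol-binding protein gene Osbpl5, had folds of 22.2 and 19.8 in wt and 15.6 and 16.8 in Hox-/-. Its shift was −0.73. It was −2.45 ranked by fold, −0.33 without wt replicate 1 and −1.14 without wt replicate 2.

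**Figure D4:**
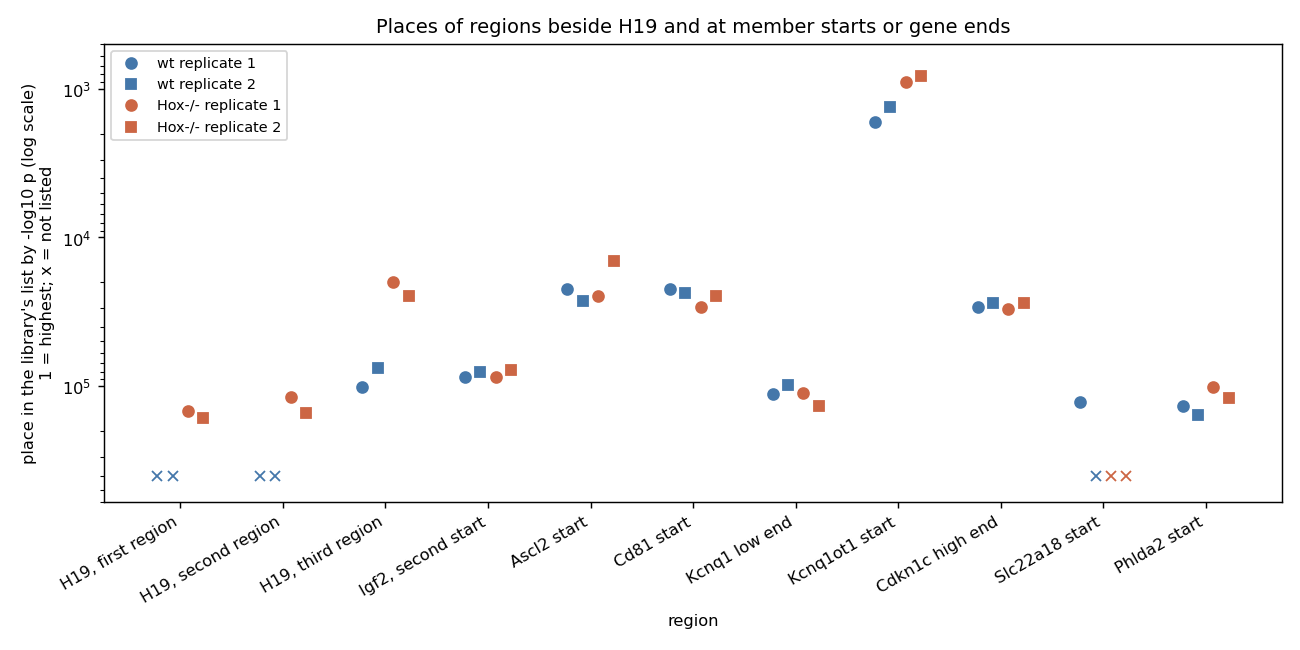
Place in each library's list (y, log scale, 1 is the strongest) of the 3 regions beside H19 and of the regions at starts or ends of the other genes, with 1 point per library and a cross where no peak was listed. The third H19 region shows the widest gap between wt (101864 and 75893) and Hox-/- (19912 and 24584), while the points of Igf2, Ascl2 and Cdkn1c overlap.

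**Figure D5:**
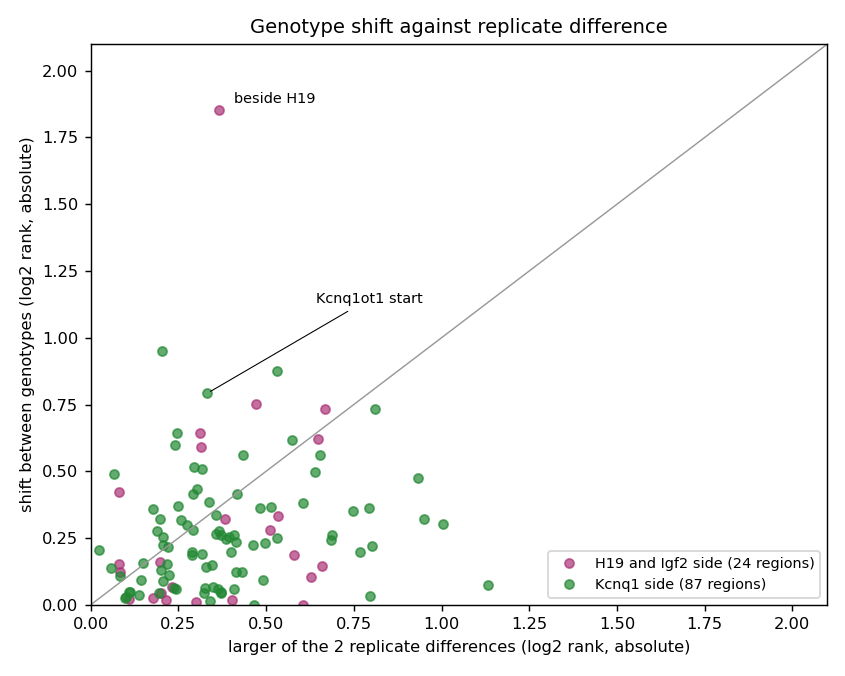
Size of the shift between genotypes (y) against the larger of the 2 replicate differences (x), both in log2 places, for the 111 common regions of the domain. Points above the diagonal differ more between genotypes than between replicates, and the region beside H19 lies far above it, at 1.85 against 0.37.

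Calls at gene ends were counted for the 10 genes and for 17 others of the cluster. Of the 10, 7 had a summit 1 kb or less from either end in all 4 libraries, against 58.1% of 34614 protein-coding and long non-coding genes, and Igf2 and Ins2 had none in any. Of the 17, 13 had such a summit in all 4 libraries and 3 (Lsp1, Th and Tspan32) in none. None of the 10 had a summit there in both wt libraries but no Hox-/- library, against 0.919% of all these genes. H19 had the reverse, against 0.231% of all these genes. This is the region beside H19 for which the domain was chosen, so nothing is read from it. As a check of the cell type, 8 of 8 embryonic stem cell markers had a peak at a gene end in all 4 libraries, but so did 4 of 4 fibroblast markers, so these calls do not set cell types apart.

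Other imprinted loci were set beside the domain, each with 50 kb on either side of its genes. In the Dlk1-Dio3 domain on chromosome 12, 27 of 50 common regions (54%) were higher in Hox-/- with no overlap and 5 (10%) lower, against 20.5% and 20.3% of all common regions, with a median shift of 0.25 against 0.00. Around Meg3, its maternally expressed long non-coding RNA, 16 of 20 were higher, and the largest shift was 1.11. Around Dio3 the direction was the other, with 2 of 10 higher and 5 lower, a median of −0.29 and a lowest shift of −1.11. Around Igf2r, Grb10, Gnas and Rasgrf1 together, 19 of 60 were higher and 18 lower, with a median of −0.04. Whether the loci differ from each other was not tested.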

How the data were processed

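The deposited data are 1 list of called ATAC-seq peaks per library, so peaks were called per library and not on pooled replicates. The submitters' processing notes name cutadapt 4.8, Bowtie2 2.5.0, Picard 2.18.2, bedtools 2.30.0, MACS2 2.2.9.1 and deepTools 3.5.4 and the build mm10, without their settings. Read shifting and the handling of duplicates are not given in the sources used here. Each line of the authors' deposited lists holds the called interval, the ratio of summit signal to local background (called fold here), −log10 p, −log10 q, a score and the summit's offset. These values come from the authors' peak caller and served to describe and order peaks of the same list.

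Libraries were grouped by the genotype label. Lines overlapping by at least 1 bp in any library were joined into regions, and a region was assigned to the gene nearest to its highest summit, of nested genes the shorter. Genes, promoter windows and neighbours came from RefSeq (GRCm38.p6). Read totals are not in the lists. The summit pileup was solved from fold = (pileup + 1) / (background + 1) and the Poisson p, and 100% of lines came within 0.05 of a whole number. Relative depth is the 0.1% quantile of that background, set to 1 in the deepest library. Intervals of pileups are exact 95% Poisson intervals. The solution and the ranking were tested on simulated data. Python 3.11.15 with numpy 2.4.6, pandas 2.3.3, scipy 1.17.1 and matplotlib 3.10.9 was used.

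The regions named are those beside H19, for each followed gene the region at or nearest to a start (or, without strand, an end) within 1 kb, those called in 1 genotype only, and the 5 with the largest shift in each direction with no overlap. Others were chosen for their position or strength after their values were seen. The domain, the genes followed and the lists were chosen with earlier results of these data known. No test was made, and 2 libraries against 2 could not give an exact p below 0.333. The alternatives were a stricter q, lists of equal length, other rules for joining regions, ranking by fold or in the own list, other bounds, a replicate block and leaving out each library.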

Additional observations from a re-analysis of the deposited data

How the results depend on the processing

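The third H19 region kept its direction and its lack of overlap with a stricter q, with summits joined within 250 bp, ranked by fold (1.66), as a percentile of the own list, with the replicate block and with any 1 library left out (1.67 to 2.04). The equal-length lists, the 50% overlap and the other bounds were not run for single regions. Other values were less settled. The log2 ratio of the share of peaks in the domain was 0.059 with a −log10 q of at least 5 and −0.033 among the 150000 strongest lines, and the count of wt-only regions was 7 with the former, against 4.42% of all regions. Joining summits within 250 bp turned the median shift of the Kcnq1 side to 0.042. Bounds set 10 kb beyond the listed genes left 101 regions, 66 of them common, with 2 wt-only regions (3.83% of all regions), 11 higher and 15 lower (20.5% and 20.3% of all common regions) and a domain median of −0.013. As percentiles of each library's own list, the median shift was −0.098 for the domain, −0.053 for the H19 and Igf2 side and −0.12 for the Kcnq1 side, with 16 regions higher and 33 lower. That scale moves all common regions by −0.11, with 12.1% of them higher and 30.7% lower, so relative to it the domain did not fall. The Igf2 region at 142660191 read −0.098 on it. Ranked by fold, the Kcnq1ot1 start turned to −0.14 and the Cd81 start to 0.0047.

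With 1 library left out, 39 to 46 regions were higher and 34 to 45 lower. Non-overlap is then easier by construction, and the shares over all regions rose to between 33.8% and 37.1%. The wt-only count was 7 to 12 of the domain's regions, against 6.83% to 10.3% of all regions, and the Hox-/- only count 3 to 8, against 2.90% to 5.88%. The median shift was −0.040 to 0.023 for the domain (negative without Hox-/- replicate 2), 0.053 to 0.13 for the H19 and Igf2 side and −0.061 to −0.00048 for the Kcnq1 side, and the log2 ratio of the share of peaks was 0.0034 to 0.031. The replicate differences of the 2 genotypes were not correlated (0.0040 over 122787 regions), so ranks showed no shared effect of the replicate number. Whether libraries were prepared in pairs is not in the labels. A replicate block gave 32 higher and 30 lower regions, against 28.3% and 27.9% of all regions. Hox-/- replicate 1 had the lowest relative depth (0.640), and its part in which regions were listed was not tested. The causes of these changes were not tested.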
